A study of Mus musculus with 6 samples.

Results

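Haematopoietic progenitor and myeloid fate factors are described here as 10 named genes, taken by symbol from the deposited table of 19323 genes: Cd34, Kit, Gata2, Meis1, Myb, Spi1, Cebpa, Cebpb, Cebpe and Gfi1. All 10 were in the table, 9 passed the filter on low values (a mean of at least 10 normalized counts over the 6 libraries), and 7 of those 9 differed between the diets. The genes were listed as possible signs of blood formation in the spleen, outside the bone marrow.

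RNA was sequenced from primary CD8+ T cells of the spleens of wild-type (WT) C57BL/6 mice, which were 6 weeks old at the start and were given either of 2 diets, ND or MCDHFD, for 7 weeks. The mice are labelled as a MASH model (metabolic dysfunction-associated steatohepatitis), and the diet names are not spelled out. There were 3 libraries per diet. The labels do not tie each library to its own mouse, and the p-values speak of library-to-library spread alone, which may be technical. The deposited normalized counts summed to 14119816 to 14752121 per library.

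In the bone marrow, a surface receptor tyrosine kinase (Kit) and the sialomucin Cd34 mark stem and progenitor cells, and the factors Gata2, Meis1 and Myb keep these cells in an immature state. Spi1, which encodes PU.1, and the C/EBP proteins then turn progenitors towards the myeloid fate, with Cebpa acting at the entry, Cebpb in emergency granulopoiesis and macrophages, and Cebpe together with Gfi1 in the making of neutrophil granules. Several of these genes also act in mature cells: Gfi1 and Myb in T cells, Spi1 in B cells and macrophages, Cebpa and Cebpb in macrophages, and Kit and Gata2 in mast cells. The mouse spleen can house blood formation when demand is high.

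The libraries held RNA of CD8 T cells and of other cells in both diets. Of 20 CD8 T cell identity genes, 20 fell in MCDHFD (median log2 fold change -0.99), and their summed level went from 134626.6 ± 898 to 74644.3 ± 5788.7 normalized counts (SD, n = 3 per diet). Cd8a was at 14172.1, 13690.3 and 13490.5 in ND and at 5772.2, 4883.6 and 5135.2 in MCDHFD. Of 24 macrophage and monocyte genes, 20 rose and 3 fell (median 2.06), and their summed level went from 73169.0 ± 6456.5 to 377945.4 ± 42490.5. The 3 that fell were Timd4 (log2 fold change -1.28) and the monocyte genes Ly6c2 (-0.88) and Ccr2 (-0.62). Lyz2 (-0.19) did not pass. In such bulk samples, fewer cells of a type and less RNA per cell cannot be told apart, and the part of these shifts in the results below was not tested except where a value is given.

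Of the 9 tested genes, 5 rose (Gata2, Spi1, Cebpa, Cebpb and Cebpe) and 2 fell (Gfi1 and Myb) in MCDHFD, in limma at an adjusted p under 0.05, while Kit and Meis1 did not pass. Of all 13430 tested genes 58.4% passed, 30.3% higher and 28.1% lower, so a passing gene is common in this comparison. Gata2 and Cebpe passed the filter through their MCDHFD values alone, and the counts are therefore a description only. The diets did not overlap in 8 of the 10 genes, 6 of them higher and 2 lower, where 65.4% of the tested genes did not overlap. The directions depend on the scale. With the mean log2 level of the CD8 T cell list held equal in all libraries, 7 of the 9 were higher and 0 lower. Under it, 11055 of all 13430 tested genes were higher and 473 lower. With the macrophage list held equal in the same way, 2 of the 9 were higher and 6 lower, where 394 of all tested genes were higher and 12237 lower.

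**Figure D1:**
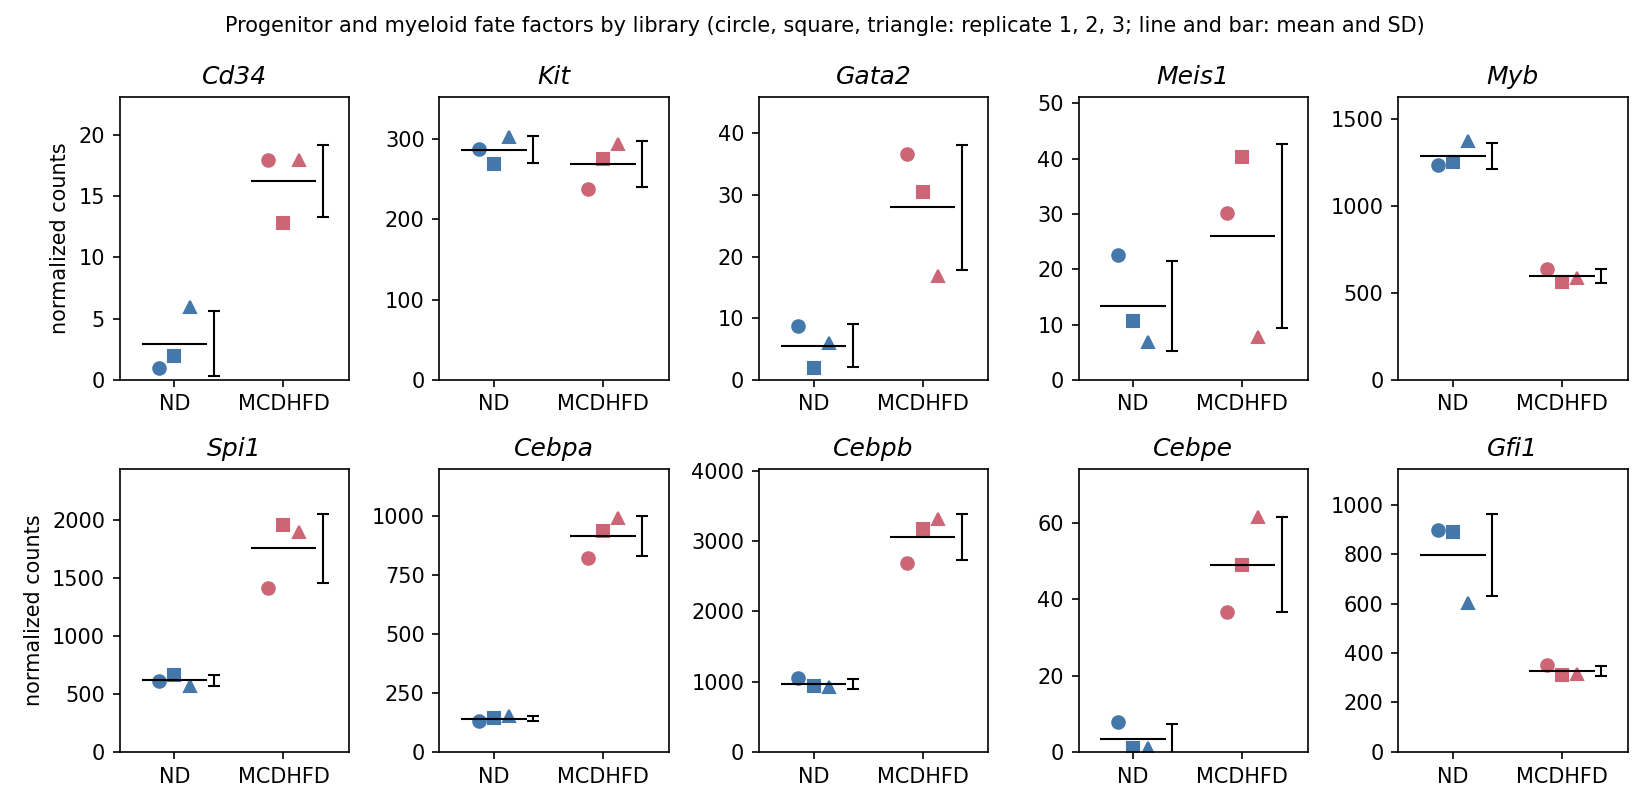
Normalized counts (vertical axis, from 0, a scale per gene) of the 10 genes in the 3 ND libraries (blue) and the 3 MCDHFD libraries (red), with circle, square and triangle for replicates 1, 2 and 3 and a line and bar for the mean and SD. Kit and Meis1 overlap between the diets, Gfi1 and Myb sit lower in MCDHFD, and the other 6 sit higher.

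Of the 2 surface markers, Kit overlapped between the diets and Cd34 was scarce. Kit (ENSMUSG00000005672, mm10 chromosome 5, 75574916 to 75656722, plus strand), the receptor for stem cell factor, was measured at 288, 269 and 303 normalized counts in ND and at 238, 275 and 294 in MCDHFD. The diets overlapped, with the lowest value in MCDHFD replicate 1 and the highest in ND replicate 3. Its mean was 287 ± 16.7 in ND and 269 ± 28.5 in MCDHFD (SD, n = 3), and the difference of -0.09 on the log2 scale (SE 0.11) did not pass (limma adjusted p = 0.471). It passed as higher with the CD8 T cell list held equal (0.89) and as lower with the macrophage list held equal (-2.12), moving with the median of all genes. Its level per Cd3e, a chain of the T cell receptor complex, was 7.65%, 7.77% and 8% in ND and 12%, 16% and 16.2% in MCDHFD, higher in each MCDHFD library, a ratio chosen after the values were seen.

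Cd34 (ENSMUSG00000016494, chromosome 1, 194938819 to 194961279, plus strand) was read at 0.979, 1.95 and 5.94 normalized counts in ND and at 17.9, 12.8 and 17.9 in MCDHFD. Every MCDHFD library was above every ND library, but the mean over the 6 libraries, 9.57, lay just under the filter and the gene was not tested. The ND mean of 2.95 ± 2.63 was close to the floor of 3 reads per library, 2.94 normalized counts in ND. In the exact two-sided permutation test p was 0.1, which is as low as a design of 3 against 3 can go, with a difference of 2.31 on the log2(value + 1) scale. Without a filter, where 19323 genes were tested, Cd34 passed (limma adjusted p = 0.00566). Of the other endothelial genes, since Cd34 also marks vessel lining, 6 of 8 tested rose, among them Esam (log2 fold change 2.68) and the sinusoid receptor Stab2 (1.64). Cdh5 did not pass (-0.53, limma adjusted p = 0.159). The summed level of the 12 endothelial genes in the table ran from 3193.7 to 3285.3 in ND and from 5506.8 to 6273.9 in MCDHFD. Pecam1 held the largest part of it, at means of 2270.6 and 3006.9. The part of the endothelial genes in the Cd34 values was not tested. The log2 fold change of Kdr, an endothelial receptor gene, was -2.07 (limma adjusted p = 0.0252), a call that ended with the CD8 T cell list held equal, in edgeR (adjusted p = 0.152) and DESeq2 (0.195), and when ND replicate 1 or 3 or MCDHFD replicate 2 or 3 was left out (adjusted p of 0.0545 to 0.0825) and that moved to -2.94 without MCDHFD replicate 1.

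Among the 3 transcription factors of the immature state, Gata2 rose, Meis1 was scattered and Myb fell. Gata2 (ENSMUSG00000015053, chromosome 6, 88193891 to 88207032, plus strand), a zinc finger factor of stem cells, was read at 8.81, 1.95 and 5.94 in ND and at 36.7, 30.5 and 16.8 in MCDHFD. The diets did not overlap, and MCDHFD replicate 3 was the lowest of its group. The log2 fold change was 2.24 (SE 0.52, limma adjusted p = 0.0051), from a mean of 5.56 ± 3.45 to 28.0 ± 10.2 (SD, n = 3). With the macrophage list held equal it was 0.21 and did not pass (limma adjusted p = 0.701).

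Meis1 (ENSMUSG00000020160, chromosome 11, 18879817 to 19018985, minus strand), a homeodomain partner of the HOX proteins, was read at 22.5, 10.7 and 6.93 in ND and at 30.1, 40.3 and 7.83 in MCDHFD. The diets overlapped because MCDHFD replicate 3 lay among the ND libraries. At 0.79 on the log2 scale (SE 0.62) it did not pass (limma adjusted p = 0.303), though it passed as higher with the CD8 T cell list held equal (1.78) and as lower with the macrophage list held equal (-1.23). Without MCDHFD replicate 3 it was 1.47 and passed (limma adjusted p = 0.0361), so 1 library decides this call. Its HOX partner gene Hoxa9, which was chosen after its values were seen, had no read in any ND library and stood at 12.2, 12.8 and 7.83 in MCDHFD, at least 3.72-fold higher against a floor of 3 reads per library. Hoxa9 was too low to test, as was Hoxa10. Of the other HOXA genes listed, Hoxa5 (25.2 ± 9.15 in ND and 13.4 ± 2.28 in MCDHFD) and Hoxa7 (43.5 ± 6.50 and 37.7 ± 2.86) did not pass. Each MCDHFD library was below each ND library for Hoxa5. Pbx3, a cofactor of Meis1 and Hoxa9, rose (log2 fold change 1.61).

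Myb (ENSMUSG00000019982, chromosome 10, 21124935 to 21160984, minus strand), needed by progenitors and by developing T cells, was read at 1236.4, 1253.9 and 1375.8 in ND and at 640, 564 and 586 in MCDHFD. The groups lay far apart relative to their spread, and the log2 fold change was -1.11 (SE 0.07, limma adjusted p = 3.05e-06). Cd3e changed by nearly as much in the same libraries (log2 fold change -1.0). Myb per Cd3e was 32.9%, 36.2% and 36.3% in ND and 32.1%, 32.9% and 32.3% in MCDHFD, with ND replicate 1 and MCDHFD replicate 2 rounding alike. This ratio was chosen after the values were seen. With the CD8 T cell list held equal, the log2 fold change of Myb was -0.13 and did not pass (limma adjusted p = 0.161), where the median of all tested genes stood at 0.99.

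The myeloid factors Spi1, Cebpa and Cebpb rose together, by different amounts, with Spi1 and Cebpb turning lower when the macrophage list was held equal. Spi1 (ENSMUSG00000002111, chromosome 2, 91082390 to 91115756, plus strand) was read at 616, 668 and 572 in ND and at 1417.4, 1956.8 and 1900.4 in MCDHFD. The lowest MCDHFD library, replicate 1, was above each ND library, and the log2 fold change was 1.49 (SE 0.12, limma adjusted p = 1.14e-05). The B cell genes, of another lineage that uses Spi1, went the other way, with 14 of 15 lower (median log2 fold change -1.91). Spib, a close relative of Spi1 in B cells, fell from 514 ± 80.2 to 60.9 ± 5.36, and the B cell receptor chain gene Cd79a from 1152.3 ± 129 to 305 ± 25.2.

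Cebpa (ENSMUSG00000034957, chromosome 7, 35119293 to 35121928, plus strand) was read at 131, 142 and 152 in ND and at 823, 936 and 990 in MCDHFD. No library of one diet came near the other, and the ratio of the means was 6.46. Its change of 2.68 on the log2 scale (SE 0.10, limma adjusted p = 1.88e-07) ranked 363 from the top among the tested genes. Cebpa stayed higher with the macrophage list held equal (log2 fold change 0.66, limma adjusted p = 0.000194). Per Csf1r, the receptor gene that macrophages share, Cebpa was 1.61%, 1.52% and 1.65% in ND and 2.97%, 3.01% and 2.89% in MCDHFD, without overlap.

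Cebpb (ENSMUSG00000056501, chromosome 2, 167688915 to 167690418, plus strand) was read at 1046.5, 941 and 920 in ND and at 2693.6, 3168.6 and 3316.5 in MCDHFD. It was the most abundant of the 10 genes per length, and its log2 fold change was 1.65 (SE 0.09, limma adjusted p = 8.56e-07). Per Csf1r, Cebpb was 12.8%, 10.1% and 9.95% in ND and 9.72%, 10.2% and 9.69% in MCDHFD, so these ratios overlapped. Spi1 per Csf1r also overlapped, at 7.56%, 7.14% and 6.19% in ND and 5.11%, 6.30% and 5.55% in MCDHFD. Both genes turned lower with the macrophage list held equal, at -0.37 for Cebpb (limma adjusted p = 0.0151) and -0.53 for Spi1 (0.00104), where the median of all tested genes stood at -2.02. These ratios were chosen after the values were seen, and the macrophage scaling was likewise added then.

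The annotation places Tmem189 on the opposite strand over the span of Cebpb, and the sources used here do not state whether counting used strand. Tmem189 was read at 844 to 1280.8 in ND and at 1173.5 to 1569.3 in MCDHFD, so the reads of the pair may be mixed. Antisense genes over Cebpa, Cd34 and Myb were at 0 to 2.97 normalized counts, and the one over Gfi1 at 18.5 to 26.4. Of the genes over Meis1, 2 on its own strand were in the table, Gm37818 at 0.941 to 2.97 and 2900018N21Rik at 0 to 4.47. Their highest MCDHFD values, 2.24 and 4.47, were in replicate 3, where the floor of 3 reads was 3.36 normalized counts. Gm37818 was at 1.97 in replicate 2. These reads are too few to set the libraries apart, and their part in the Meis1 values was not tested.

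The late granulocyte factors parted: Cebpe rose and Gfi1 fell. Cebpe (ENSMUSG00000052435, chromosome 14, 54710360 to 54712174, minus strand), which drives the genes of secondary granules, was read at 7.83, 0.973 and 0.99 in ND and at 36.7, 49.1 and 61.5 in MCDHFD. ND replicate 1 held most of the ND signal, and the other ND libraries held 1 read's worth each. The log2 fold change was 3.91 (SE 0.59, limma adjusted p = 0.000494), and it was 4.63 without ND replicate 1. It was the largest change among the tested genes of the 10, at rank 128 from the top among all tested genes.

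Gfi1 (ENSMUSG00000029275, chromosome 5, 107716657 to 107726036, minus strand), a repressor that guides granulocytes and is also used by T cells, was read at 897, 889 and 604 in ND and at 351, 312 and 317 in MCDHFD. ND replicate 3 lay below the other ND libraries and still above each MCDHFD library. The log2 fold change was -1.26 (SE 0.15, limma adjusted p = 0.000101). With the CD8 T cell list held equal it was -0.28 and did not pass (limma adjusted p = 0.100). Per Cd3e, Gfi1 was 23.8%, 25.7% and 16% in ND and 17.6%, 18.2% and 17.4% in MCDHFD. The diets overlapped through ND replicate 3 alone, and the ratio was chosen after the values were seen.

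Promoter windows are shown for the pair of C/EBP genes that rose together and for the pair of factors that fell, since these 4 genes carry the opposite movements. Each window holds 250 bases before and 50 after the annotated start, from RefSeq on GRCm38.p6, read 5′ to 3′ on the strand of the gene; 8 of the 10 genes had an entry. Capitals mark matches, on either strand, to the letters of 5 factors' motifs, given after the sequences, which may overlap each other. The windows lie at chr7:35119043-35119342 (plus strand, Cebpa), chr2:167688665-167688964 (plus, Cebpb), chr5:107725756-107726055 (minus, Gfi1, the outer of its 2 starts) and chr10:21160935-21161234 (minus, Myb).
Cebpa: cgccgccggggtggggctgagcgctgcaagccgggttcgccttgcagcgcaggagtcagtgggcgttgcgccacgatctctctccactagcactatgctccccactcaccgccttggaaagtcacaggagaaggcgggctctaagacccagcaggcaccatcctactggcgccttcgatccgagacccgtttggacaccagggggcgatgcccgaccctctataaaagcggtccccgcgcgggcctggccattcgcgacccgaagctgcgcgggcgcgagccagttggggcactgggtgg
Cebpb: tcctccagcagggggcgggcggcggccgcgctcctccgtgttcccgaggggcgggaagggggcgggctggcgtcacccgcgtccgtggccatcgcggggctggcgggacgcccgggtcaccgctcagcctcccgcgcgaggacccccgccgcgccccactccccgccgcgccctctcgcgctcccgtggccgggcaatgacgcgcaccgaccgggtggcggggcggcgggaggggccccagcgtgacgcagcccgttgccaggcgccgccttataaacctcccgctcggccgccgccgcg
Gfi1: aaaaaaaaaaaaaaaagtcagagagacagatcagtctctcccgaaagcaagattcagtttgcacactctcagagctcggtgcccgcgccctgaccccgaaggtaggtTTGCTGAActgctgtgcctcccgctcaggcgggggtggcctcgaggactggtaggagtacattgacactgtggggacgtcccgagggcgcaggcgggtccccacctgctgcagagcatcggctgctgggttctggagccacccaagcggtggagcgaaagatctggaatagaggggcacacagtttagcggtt
Myb: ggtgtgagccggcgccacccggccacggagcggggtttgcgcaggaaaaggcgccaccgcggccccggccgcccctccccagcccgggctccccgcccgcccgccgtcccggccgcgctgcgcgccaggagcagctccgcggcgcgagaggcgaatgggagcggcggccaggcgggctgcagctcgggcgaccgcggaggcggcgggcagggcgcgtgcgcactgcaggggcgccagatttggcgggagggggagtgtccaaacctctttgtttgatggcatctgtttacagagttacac

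Only the Gfi1 window among these 4 held a match, to the C/EBP letters, starting at position -143 from the annotated start. The C/EBP letters were TTGCNNAA, which 10.8% of the windows of 32851 annotated starts held on either strand. The PU.1 letters were GAGGAAG, held by 13.6% of those windows. For GATA factors AGATAA was searched, and 11.2% held it. For MYB the search was for TAACNG, in 23.3% of windows, and for GFI1 it was for AAATCA, in 14.0%. The GC content was 67.3% for Cebpa, 80.7% for Cebpb, 58.0% for Gfi1 and 75.0% for Myb. Elsewhere among the 10 genes, both Kit windows, which overlap, held the PU.1 letters, Cd34 the MYB and GFI1 letters and Meis1 the MYB letters. A match is a description of these letters in this window only.

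Levels can be compared between genes per length, as normalized counts per kilobase of merged exon (GENCODE M21). In ND the order was Cebpb (644 ± 45.0), Gfi1 (250 ± 52.4), Spi1 (230 ± 17.9), Myb (144 ± 8.50), Cebpa (53.8 ± 4.03) and Kit (32.2 ± 1.88), followed by Cebpe, Meis1, Gata2 and Cd34 at means of 0.405 to 2.63. Gfi1 and Spi1 overlapped, as did each pair of neighbours among the last 4. In MCDHFD the order was Cebpb (2034.3 ± 216), Spi1 (652 ± 110), Cebpa (348 ± 32.4), Gfi1 (102 ± 6.75), Myb (66.8 ± 4.37), Cebpe (39.6 ± 10.0) and Kit (30.2 ± 3.20). Cebpe and Kit overlapped there, and Gata2 (5.18 ± 1.89), Meis1 (2.48 ± 1.58) and Cd34 (2.22 ± 0.405) overlapped each with the next. The 3 myeloid factors thus held the first 3 places in MCDHFD, with no overlap between them, and Gata2, Meis1 and Cd34 held the last 3.

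**Figure D2:**
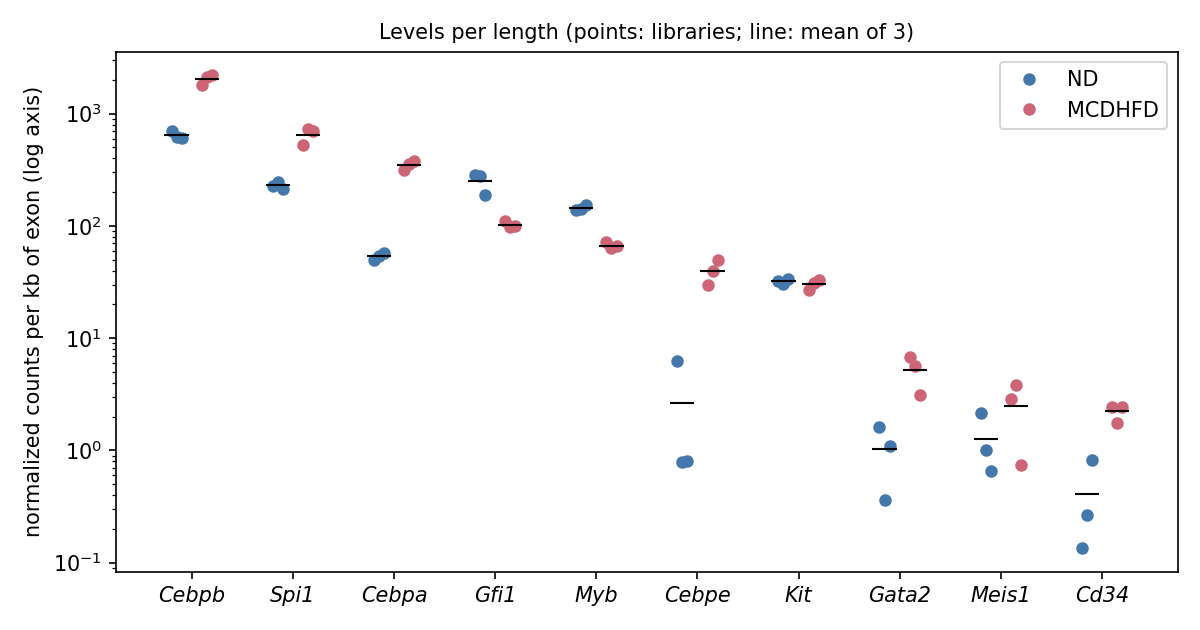
Level per length (normalized counts per kilobase of merged exon, log axis) of the 10 genes in each ND (blue) and MCDHFD (red) library, ordered by the MCDHFD mean, with a line at each mean. Cebpb leads in both diets, and Gata2, Meis1 and Cd34 lie lowest in MCDHFD, at means of 5.18, 2.48 and 2.22.

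Around these genes, the partners of stem and progenitor cells moved both ways. Of 19 tested partners, 10 rose and 4 fell (median log2 fold change 0.40, against 0.00 for all tested genes). With the CD8 T cell list held equal, 15 were higher and 1 lower, where 11055 of all 13430 tested genes were higher. Tal1, a factor of stem cells and of the erythroid line, rose from 17.3 ± 4.28 to 234 ± 65.6 normalized counts (log2 fold change 3.67). Prom1, a membrane protein of progenitors, rose from 23.6 ± 5.39 to 260 ± 18.8 (3.43). Flt3, a receptor of early progenitors and of dendritic cells, fell from 634 ± 35.9 to 167 ± 36.3 (-1.94), in libraries where 11 of the 14 other dendritic cell genes fell. Of the 27 partners, 8 were too low to test, among them Mecom, a transcription factor of stem cells (1.30 ± 1.48 and 0.627 ± 1.09).

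Of 18 other myeloid fate factors, 8 rose and 6 fell (median log2 fold change 0.14). The erythroid and platelet line factors Gfi1b and Nfe2 rose, Gfi1b from 5.21 ± 3.10 to 153 ± 19.0 and Nfe2 from 20.3 ± 5.45 to 106 ± 22.5. Gfi1b and its relative Gfi1 therefore moved in opposite directions (log2 fold changes 4.73 and -1.26). Id1, an inhibitor of helix-loop-helix factors, rose too (2.92). Irf4, used by activated lymphocytes and plasma cells, fell (-1.67). It was the 1 of 9 tested plasma cell genes that fell, where 6 rose (median 0.83). Irf8, the monocyte and dendritic cell factor, did not pass at 2127.0 ± 19.8 and 2313.1 ± 108 (0.12, limma adjusted p = 0.0799), though each MCDHFD library was above each ND library. With the CD8 T cell list held equal, 15 of the 18 were higher and 1 lower, where 11055 of all 13430 tested genes were higher.

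Receptors and ligands of the progenitor niche were next. Of 12 growth factor and chemokine receptor genes, 9 rose (median log2 fold change 1.05), including Csf1r (1.79), the shared beta chain gene Csf2rb (1.95), the erythropoietin receptor gene Epor (2.92) and Il1rl1 (3.23), the interleukin-33 receptor of mast cells and other type 2 cells. Of the 16 niche ligand genes, 9 were in the table, 6 were tested and 5 rose (median 1.65). Kitl, the ligand of Kit, was read at 35.2, 58.4 and 81.2 in ND and at 257, 288 and 321 in MCDHFD. Kitl rose without overlap (log2 fold change 2.36, SE 0.27, limma adjusted p = 8.08e-05) in libraries where the receptor gene Kit did not pass. Cxcl12, the chemokine that holds progenitors in their niche, rose from 3.29 ± 4.13 to 33.2 ± 10.1 (3.49), a value that became 2.70 when ND replicate 1 was left out and 4.28 when ND replicate 3 was. Jag1 (1.13) and Vcam1 (2.17), which is also a macrophage gene, rose too.

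Granule genes, which the C/EBP factors are known to drive, included the list with the largest median change among those examined. Of 10 primary granule genes, which promyelocytes make, 7 rose and 2 fell, with a median log2 fold change of 4.16, or 3.91 with Ms4a3 at its bound. Of these, Elane, Mpo, Prtn3, Ctsg, Ms4a3 and Prss57 had ND means under 10 and passed the filter through their MCDHFD values alone. The count and the median are therefore a description only. The same filter limit holds for Itgb2l, Gfi1b, Il1rl1, Cxcl12, Pf4 and Prss34 in the other lists. Prtn3, the gene of proteinase 3, rose from 5.88 ± 2.58 to 295 ± 92.8. Ms4a3, a marker of granulocyte and monocyte progenitors, had no read in any ND library and stood at 60.2, 113 and 99.5 in MCDHFD, at least 30.9-fold higher. Mpo, the myeloperoxidase gene, was read at 16.6, 5.84 and 0.99 in ND and at 453, 1021.1 and 796 in MCDHFD. Its log2 fold change of 6.85 became 7.60 when ND replicate 1 was left out and 6.03 when ND replicate 3 was. The 2 that fell were Plac8 (-0.79) and Cst7 (-1.03), which T cells also express. With the CD8 T cell list held equal, Plac8 was at 0.20 and Cst7 at -0.05, and neither passed. Under that scaling the median of all tested genes stood at 0.99. The part of T cells in these 2 falls was not tested.

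Of 17 tested secondary and late granule genes, 15 rose (median log2 fold change 2.88). The other 2, Cxcr2 (-0.03) and Lyz2 (-0.19), did not pass. Ly6g, at 8.82 ± 10.2 in ND and 4.4 ± 1.54 in MCDHFD, was too low to test. Ngp was read at 493, 221 and 168 in ND and at 3577.4, 5472.3 and 4951.7 in MCDHFD, and Ltf, which encodes lactoferrin, at 320, 140 and 109 and at 819, 1437.9 and 1306.4. As for Cebpe, ND replicate 1 was the highest ND library for 19 of the 27 granule genes of both lists with a read in ND, and it was the lowest for 5. S100a8 rose from 137 ± 39.9 to 1628.4 ± 548, and Cd177, a neutrophil surface protein, from 35.2 ± 13.7 to 814 ± 226. Itgb2l rose too (5.19), and this value was 6.52 without ND replicate 1 and 4.53 without either of the other ND replicates. In MCDHFD, replicate 1 was the lowest library for 24 of those 27 and the highest for 1, and it was also the lowest for Cebpe, Spi1, Cebpa and Cebpb. That library also had the lowest macrophage sum (328891.3) and the highest CD8 T cell sum (81229.4) of the 3.

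**Figure D3:**
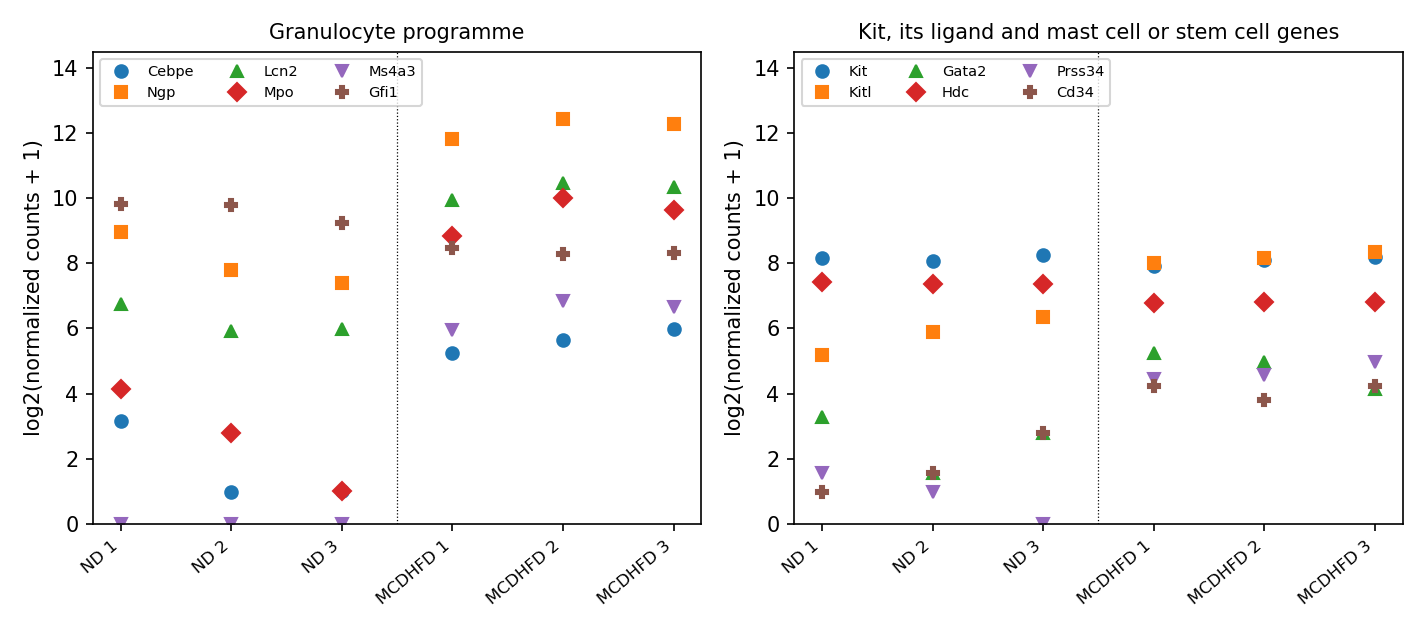
Values of log2(normalized counts + 1) in each of the 6 libraries, for Cebpe, Gfi1 and granule genes (left) and for Kit, its ligand gene Kitl and genes of mast or stem cells (right), with 1 symbol per gene. Cebpe and the granule genes are higher in each MCDHFD library while Gfi1 is lower, and Kitl is higher while Kit overlaps between the diets.

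Genes of mast cells and basophils, which carry Kit or Gata2 as mature cells, were low apart from Hdc. Of the 15 other genes in that list, 8 were in the table and 2 were tested. Prss34, a basophil protease gene, rose from 0.977 ± 0.979 to 24.5 ± 5.02 (limma adjusted p = 0.00026). Hdc, which makes histamine, fell from 167 ± 4.02 to 110 ± 0.985 (log2 fold change -0.60), and was higher (0.39) with the CD8 T cell list held equal. Cpa3, a mast cell protease gene, was at 1.97 ± 1.96 and 10.6 ± 5.03, and was not tested. The summed level of the list was 165 to 183 in ND and 150 to 166 in MCDHFD. Without Hdc, the other 7 genes summed to 11.7, 0.973 and 7.92 in ND and to 40.5, 52.1 and 55.9 in MCDHFD, higher in each MCDHFD library. The part of these cells in the Gata2 values was not tested.

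Other blood lines moved in the same libraries. All 22 tested erythroid genes rose (median log2 fold change 3.35), among them the red cell membrane gene Rhag (5.06) and the factors Gata1 (from 20.2 ± 12.8 to 204 ± 44.7) and Klf1 (from 12.4 ± 3.98 to 162 ± 33.2). Of 6 tested megakaryocyte and platelet genes 4 rose and 1 fell. Pf4 rose from 3.93 ± 2.60 to 17.1 ± 3.96, and Itgb3 fell from 382 ± 19.9 to 76.8 ± 11.2 (log2 fold change -2.31). Of 4 tested lymphoid progenitor genes, 3 fell and 1 rose. Vpreb3 fell from 29 ± 8.86 to 6.65 ± 1.58 (log2 fold change -1.94), and passed the filter through its ND values alone. Cd24a, which red cell precursors also express, rose (1.08). With the CD8 T cell list held equal 1 of the 4 was lower and 2 higher. The recombinase gene Rag1 was at 0.975 ± 0.973 in ND and had no read in MCDHFD. Among 18 cell cycle genes 10 rose and 2 fell (median 0.60), with Mki67 from 1300.5 ± 102 to 2833.3 ± 440 and Cdk1 from 65.9 ± 12.4 to 155 ± 15.8. With the CD8 T cell list held equal, 18 of these 18 were higher, where 11055 of all 13430 tested genes were higher and 473 lower.

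**Figure D4:**
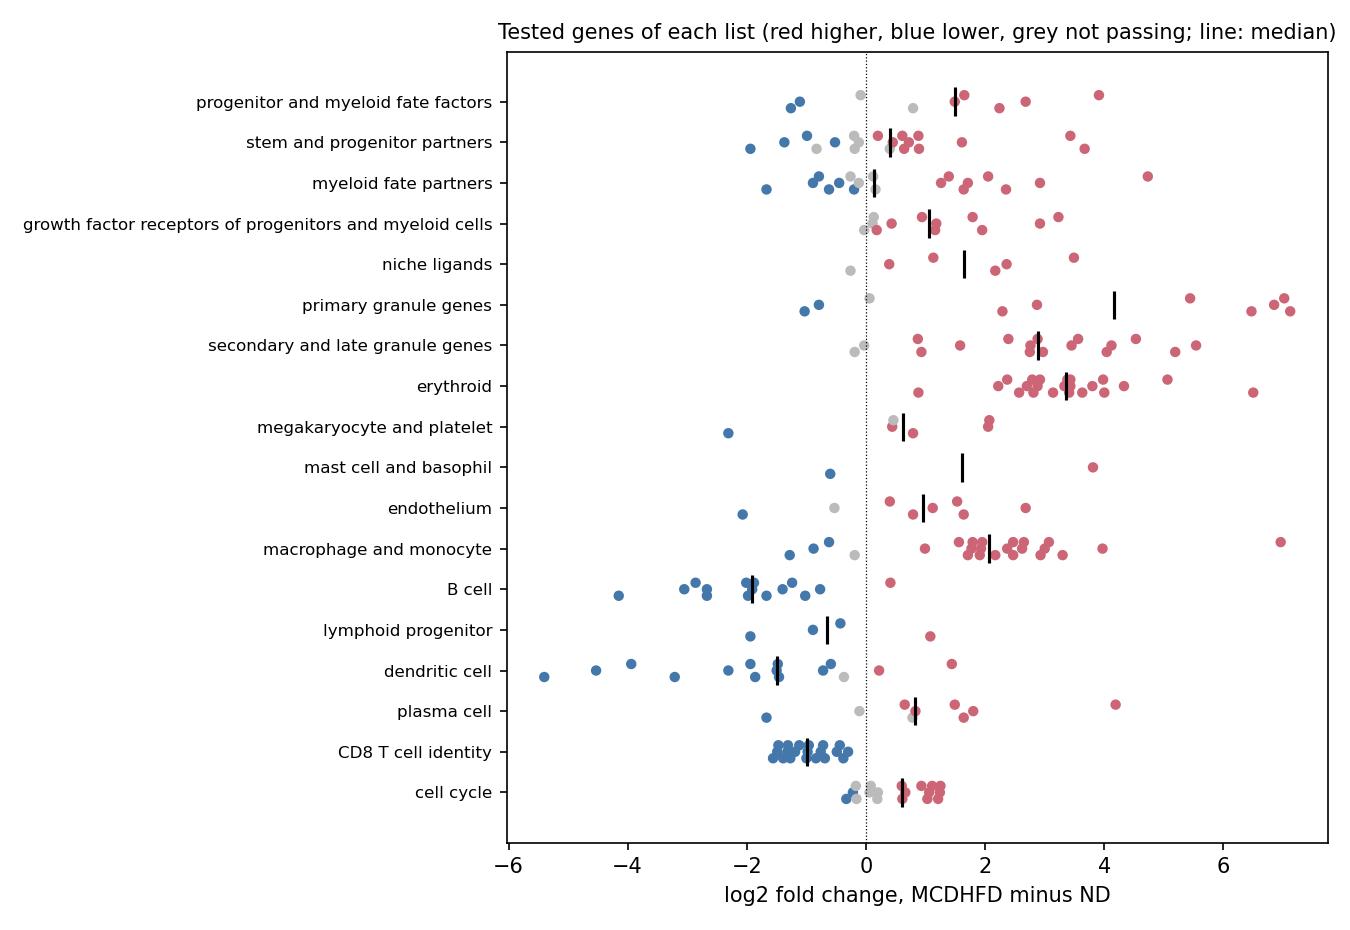
Log2 fold change (horizontal axis, MCDHFD minus ND, deposited scaling) of each tested gene of each list, red where higher and blue where lower at an adjusted p under 0.05, grey otherwise, with a line at the median. The medians are 4.16 for primary granule genes, 3.35 for erythroid genes, 0.40 for stem and progenitor partners and -0.99 for CD8 T cell identity genes.

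The genes with the pattern most like Cebpe over the 6 libraries, by the smallest root-mean-square distance between centred log2 values taken over 10487 genes at or above a mean of 50, were Ngp (0.338), Pkhd1l1 (0.373), C1rl (0.405), Lcn2 (0.475) and Ighv14-4 (0.481). Ngp and Lcn2 are neutrophil granule genes, and the immunoglobulin segment belongs to a family of similar copies. At a pseudocount of 5 in place of 1, only 1 of these 5 was among the nearest, so the list depends on the low ND values. The genes nearest to Kit were Tifab (0.037), Mast4 (0.037), B3glct (0.047), Psmd5 (0.048) and AI837181 (0.049), and all 5 were again nearest at pseudocounts of 0.5 and 5. These distances describe 6 libraries and are no test.

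The scale on which the genes are set changes what can be said of the 9. The deposited scaling left the median of all tested genes at 0.00, and holding the CD8 T cell list equal moved it by 0.98 and holding the macrophage list equal by -2.03. Relative to those medians, Kit stayed close to the typical gene in all 3 cases, at -0.09, 0.89 and -2.12. Cebpa, at 2.68, 3.66 and 0.66, and Cebpe, at 3.91, 4.90 and 1.89, passed as higher in all 3. Spi1 and Cebpb passed as higher in the first 2 and as lower in the third. Gfi1 (-1.26, -0.28 and -3.29) and Myb (-1.11, -0.13 and -3.14) lay below the median of the tested genes in each.

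**Figure D5:**
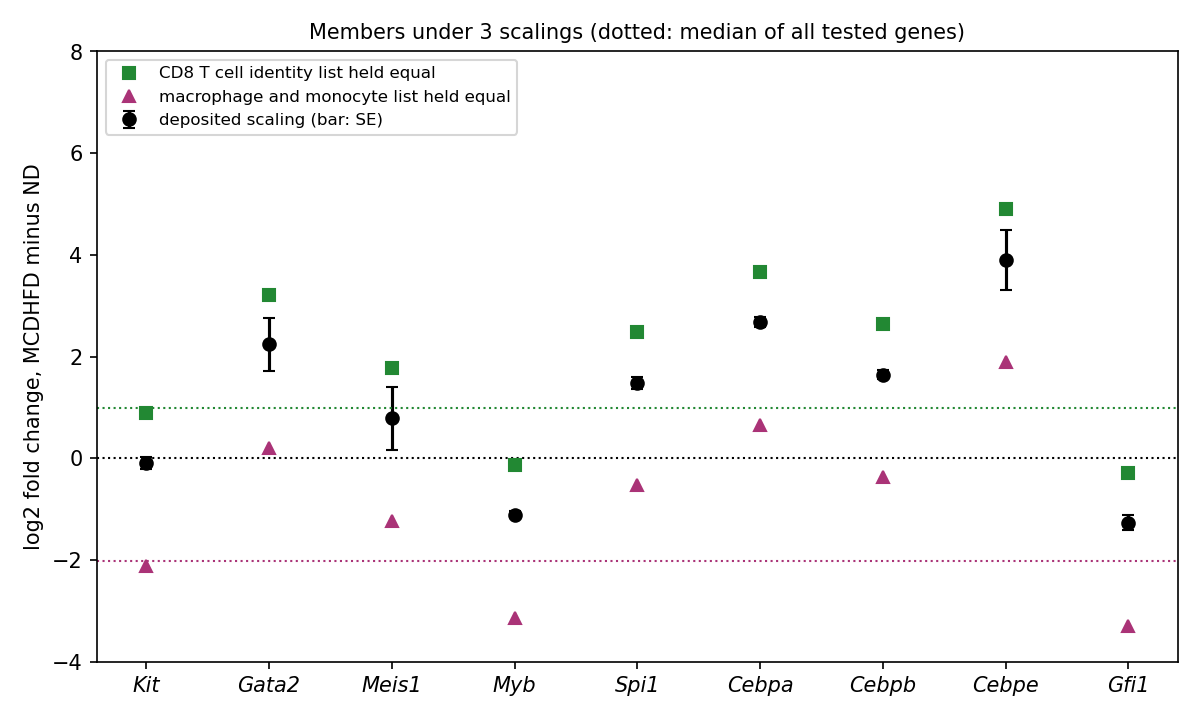
Log2 fold change (vertical axis, MCDHFD minus ND) of the 9 tested genes under the deposited scaling (black, with SE), with the CD8 T cell list held equal (green) and with the macrophage list held equal (purple), with dotted lines at the median of all tested genes, 0.00, 0.99 and -2.02. Cebpa and Cebpe lie above 0 under each, while Spi1 and Cebpb lie below 0 (-0.53 and -0.37) with the macrophage list held equal.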

How the data were processed

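The deposited table holds normalized counts, a signal that the authors made by dividing the read counts of each library by 1 factor, per the file headers and the values. The genome build was mm10 according to the submitters' processing notes. The sources used here do not give the aligner, counter, strand setting or annotation. The labels' protocols name TRIzol for extraction and 2 library kits, and do not tie a kit to a library.

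In all 6 libraries 100% of values were whole multiples of the smallest value above 0, at a tolerance of 0.01. In 5 these gave 13188812 to 15482458 reads. For ND replicate 3, whose step lay near 1, the reads were not accepted as recovered, and it stayed out of count tests. Floors of 3 reads cover counting error only. The columns of the table marked M with a number were read as the MCDHFD libraries of that number, the other diet of the pair that the table names. Symbols were matched by identifier for 19202 of 19323 genes, and positions and exon lengths come from GENCODE M21 on mm10.

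Genes with a mean of at least 10 were tested with limma 3.58.1 (R 4.3.3) on log2(value + 1), with an intensity trend, diet as the only term and Benjamini-Hochberg adjustment over 13430 genes at 0.05. Fold changes on this scale understate those of low genes. The members and lists were chosen with earlier results of these data known, and genes of the 10 are left out of the other lists. Named genes are the 10, up to 4 passing genes per list by size of change, up to 3 more by highest mean, and the 5 nearest in pattern to Kit and to Cebpe; other names were chosen after their values were seen, and not all genes of the rule are given. Correlations of log2 values were 0.985 to 0.988 within and 0.896 to 0.916 between diets, and the pairs of same-diet libraries with recovered reads differed by more than sampling noise (chi-square per degree of freedom of 6.44 to 12.4). Alternatives included edgeR 4.0.16 and DESeq2 1.42.0 on the reads of 5 libraries.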

Additional observations from a re-analysis of the deposited data

How the results depend on the processing

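The call and direction of Cebpa and Cebpe held under every alternative run, and those of Gata2, Cebpb, Spi1, Gfi1 and Myb under every one but a scaling to a cell list. Of 159 values of single genes of the 9 under an alternative, 149 kept direction and call. Leaving out each library in turn gave 5 to 6 genes higher and 2 lower. At a filter of a mean of 50, 3 were higher, since Gata2, Meis1 and Cebpe were no longer tested. With the CD8 T cell list held equal, 7 were higher and 0 lower, Kit turned to 0.89, Plac8 to 0.20 and Hdc to 0.39, all tested genes split into 11055 higher and 473 lower, where the deposited scaling gave 4065 and 3772, and 32 genes of the other lists were lower in place of 68. With the macrophage list held equal, an alternative added after seeing the data, 2 were higher and 6 lower, with Meis1 at -1.23, Cebpb at -0.37 and Spi1 at -0.53. All tested genes then split into 394 higher and 12237 lower. A replicate block left 5 genes higher and 2 lower, and 4010 higher and 3697 lower of all tested genes. Same-numbered libraries had correlated deviations of 0.0365, 0.0621 and 0.00572, and not every library correlated best with its own number, so the numbers were not taken as a pairing. edgeR and DESeq2 on 5 libraries gave the same 5 higher and 2 lower. Of 826 values for the other genes named, 813 kept direction and call, and of 578 list counts 542 stayed within 1.5 times. Low reads limit Cd34, Cebpe, Gata2 and Meis1, whose ND means were 2.95 to 13.4 normalized counts.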
